A study of Mus musculus with 96 samples.

Results

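Nr1d1, Nr1d2 and Rora encode 3 nuclear receptors of the circadian clock, and their transcripts were followed over time in mouse intestinal organoids. The 3 genes were chosen by name, as the REV-ERB and ROR rows of the expression tables, from 55536 genes in all. Of the 3, Nr1d1 and Nr1d2 reached a mean of 1 TPM (a transcript level per length, scaled to the library total) in at least 1 genotype and were tested. Rora did not, so its values are given without a call.

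The organoids, epithelial cultures from C57BL/6 mice, carried 4 genotypes. Control organoids were labelled APC+/+;BMAL1+/+, Bmal1-null organoids APC+/+;BMAL1-/-, Apc-min organoids APCmin/-;BMAL1+/+ and Apc-min Bmal1-null organoids APCmin/-;BMAL1-/-. All of them received 0.1 µM dexamethasone, a glucocorticoid that sets clocks to a common phase, for 1 h, and were collected every 2 h from 24 to 46 h afterwards. The Apc wild-type genotypes grew in the medium labelled ENR and both APCmin genotypes in the medium labelled EN, and libraries 1 to 48 are APCmin and 49 to 96 Apc wild type, so Apc genotype, medium and library series cannot be told apart. Each genotype has 22 libraries with expression values, 1 or 2 at each of the 12 time points, 88 of the 96 labelled. Each genotype comes from 2 organoid lines, and the line behind each library is not given, so p-values measure the spread between libraries, which may be technical. Such organoids are grown from gut epithelium, without its mesenchyme and immune cells.

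REV-ERB alpha (Nr1d1) and REV-ERB beta (Nr1d2) repress transcription by recruiting the corepressor NCoR with the histone deacetylase HDAC3, and they bind heme. ROR proteins, among them ROR alpha (Rora) and ROR beta (Rorb), activate from the same DNA elements. BMAL1, with CLOCK or NPAS2, drives the REV-ERB genes through E-box elements, PER and CRY proteins hold that activity back, and the receptors in turn set the transcription of Bmal1 (gene symbol Arntl), which closes a second loop of the clock.

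Nr1d1 (ENSMUSG00000020889) lies on chromosome 11 from 98767932 to 98775333 on the minus strand, Nr1d2 (ENSMUSG00000021775) on chromosome 14 from 18204054 to 18239127 on the minus strand, and Rora (ENSMUSG00000032238) on chromosome 9 from 68653786 to 69388246 on the plus strand (GRCm38, GENCODE M21). Rora spans 734.5 kb, against 7.40 kb for Nr1d1 and 35.1 kb for Nr1d2. The 3 promoter stretches below are shown because Nr1d1 and Nr1d2 moved together with Bmal1 genotype while Rora was near 0 TPM. They run 5′ to 3′ and end just before the RefSeq start (GRCm38.p6), and capitals mark the motif matches. For Nr1d2 the last 21 bases before that start are left out, since GENCODE places them inside the gene. The windows are chr11:98775378-98775627 (minus strand), chr14:18239128-18239356 (minus strand) and chr9:68653536-68653785 (plus strand).
Nr1d1: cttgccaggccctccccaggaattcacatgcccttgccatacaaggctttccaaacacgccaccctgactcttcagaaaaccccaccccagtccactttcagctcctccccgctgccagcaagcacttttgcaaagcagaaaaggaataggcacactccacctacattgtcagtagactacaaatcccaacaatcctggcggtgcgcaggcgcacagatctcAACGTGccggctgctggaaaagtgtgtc
Nr1d2: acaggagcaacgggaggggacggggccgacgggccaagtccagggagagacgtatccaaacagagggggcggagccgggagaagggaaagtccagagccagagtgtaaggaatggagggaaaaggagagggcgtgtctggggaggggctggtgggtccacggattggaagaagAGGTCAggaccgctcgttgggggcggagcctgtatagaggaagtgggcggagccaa
Rora: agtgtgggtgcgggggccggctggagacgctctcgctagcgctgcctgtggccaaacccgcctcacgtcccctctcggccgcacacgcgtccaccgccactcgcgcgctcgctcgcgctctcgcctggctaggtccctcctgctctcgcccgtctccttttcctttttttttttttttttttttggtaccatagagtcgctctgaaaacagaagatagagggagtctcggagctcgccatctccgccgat
In the 250 bases before the start, on both strands, the searched letters were the E-box CACGTG, the related CACGTT, the nuclear receptor element AGGTCA and the D-box TTATGTAA. Nr1d1 held 1 match to CACGTT, on the reverse strand at position -28 from the start, a motif found in 3.85% of 32851 promoter windows of that length. Nr1d2 held 1 match to AGGTCA at position -77, found in 14% of the windows. Rora held no match to any of the searched motifs. The E-box was found in 6.02% of the windows and the D-box in 0.819%, and none of these 3 windows held either. A missing match says only that these letters are not in these 250 bases.

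The 88 libraries had 28.8 M to 48.1 M uniquely mapped reads. All 6 epithelial markers (Epcam, Cdh1, Vil1, Cdx2, Krt8, Krt20) averaged 1 TPM or more in every genotype, summing to 6162 to 9012 TPM in control, 6331 to 8750 in Bmal1-null, 3389 to 5204 in Apc-min libraries and 3774 to 5927 TPM in those labelled Apc-min Bmal1-null. Of 8 immune markers only Cd68 averaged 1 TPM in any genotype, the list summed to 1.06 to 3.12 TPM in control and 6.54 to 26.98 TPM in Apc-min libraries, and Il7r, Il17a and Il22 were listed at 0 in all 88 libraries. The smooth muscle marker Acta2 averaged 0.0045 TPM in control, 2.07 in Apc-min libraries and 7.38 TPM in those labelled Apc-min Bmal1-null. Myh11 and Des of the same list averaged 0.0136 and 0.0573 TPM in Apc-min libraries. The endothelial marker Cdh5 averaged 7.18 TPM in Apc-min libraries and 0.00045 TPM in control. Pecam1 of that list averaged 0.035 and 0.256 TPM in the same order, and Kdr 0.0036 TPM in both. Of the immune markers, Cd68 averaged 13.2 TPM in Apc-min libraries and 1.86 TPM in control, and Ptprc 0.03 and 0.10 TPM. The part of these markers in the Apc-min differences below was not tested.

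A pair of libraries went against their Bmal1 labels. In the library labelled Apc-min 28 h replicate 1, Nr1d2 was 2.87 TPM, where the other 21 Apc-min libraries ran from 8.18 to 13.5 TPM, and Arntl was 4.09 TPM against 7.20 to 17.3 TPM. Its Rora was 0.04 TPM against 0.07 to 1.57 TPM. Its Nr1d1, at 6.04 TPM, lay within the 5.40 to 19.3 TPM of the other 21. In 28 h replicate 1 of the group labelled Apc-min Bmal1-null, Nr1d1 was 12.02 TPM against 1.81 to 5.86 TPM in the other 21, Nr1d2 14.7 against 1.68 to 3.54 TPM, Rora 0.46 against 0.03 to 0.17 TPM and Arntl 14.7 against 2.00 to 6.22 TPM. The level results for Nr1d1, Nr1d2 and Arntl that include this pair are also given without it, and so are the gene list counts it changes. Values that include Nr1d2 and Arntl picked out the pair. A smaller spread or SE of these genes without it therefore follows from leaving it out. A second split concerns the library numbers. In each genotype the libraries fall into a lower-numbered and a higher-numbered one of each time point. Higher-numbered Bmal1-null libraries held 39.6 to 84.9 TPM of Xist, an RNA of the inactive X chromosome, and at most 0.11 TPM of the Y-linked Ddx3y. Lower-numbered Bmal1-null libraries held at most 0.06 TPM of Xist and at least 9.16 TPM of Ddx3y. Apc-min Bmal1-null libraries split the same way, with 41.8 to 88.4 TPM of Xist in the higher-numbered ones and at most 0.10 TPM in the others.

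The targeted gene, Arntl (chromosome 7, 113207465 to 113314126, plus strand), had a mean of 14.9 ± 2.74 TPM (SD, n = 22) in control libraries and of 8.67 ± 1.14 TPM (SD, n = 22) in Bmal1-null libraries, and no Bmal1-null library reached the lowest control. In Apc-min libraries its mean was 11.1 ± 3.44 TPM, and in Apc-min Bmal1-null libraries it was 4.86 ± 2.42 TPM. Without the pair at 28 h these means were 11.4 ± 3.14 and 4.39 ± 1.03 TPM (SD, n = 21 each). The labels do not say which part of Arntl is missing, so a total over the gene checks the labels only in part. Levels below were compared with limma on log2(TPM + 1) with time points as levels of a factor. Calls are genes whose p, adjusted by Benjamini-Hochberg over every gene tested, stayed under 0.05. On this scale the change of a low gene is understated.

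Loss of Bmal1 in Apc wild-type organoids brought both REV-ERB genes down to a small part of their control level. Nr1d1 ran from 7.65 to 28.2 TPM in control libraries, with a median of 16.1, and from 1.40 to 3.25 TPM, median 2.47, in Bmal1-null libraries. Nr1d2 ran from 4.30 to 14.7 TPM, median 10.6, in control and from 0.85 to 2.65 TPM, median 1.84, in Bmal1-null libraries. For both genes each of the 22 Bmal1-null libraries lay below the lowest control library, at all 12 time points. How many of all genes separate these genotypes without overlap was not counted, so the gap is not shown to be particular to these genes. The control mean was 7.12 times the Bmal1-null mean for Nr1d1 and 5.43 times for Nr1d2. On the log2 scale Nr1d1 fell by 2.38 ± 0.10 (SE; adjusted p = 7.77e-20) and Nr1d2 fell by 1.92 ± 0.11 (adjusted p = 3.42e-15). Lower calls made up 1.47% of the 12654 genes tested in this comparison. Within the lower-numbered libraries alone, where the sex-linked genes did not split, Nr1d1 fell by 2.29 ± 0.14 and Nr1d2 fell by 2.13 ± 0.14.

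**Figure D1:**
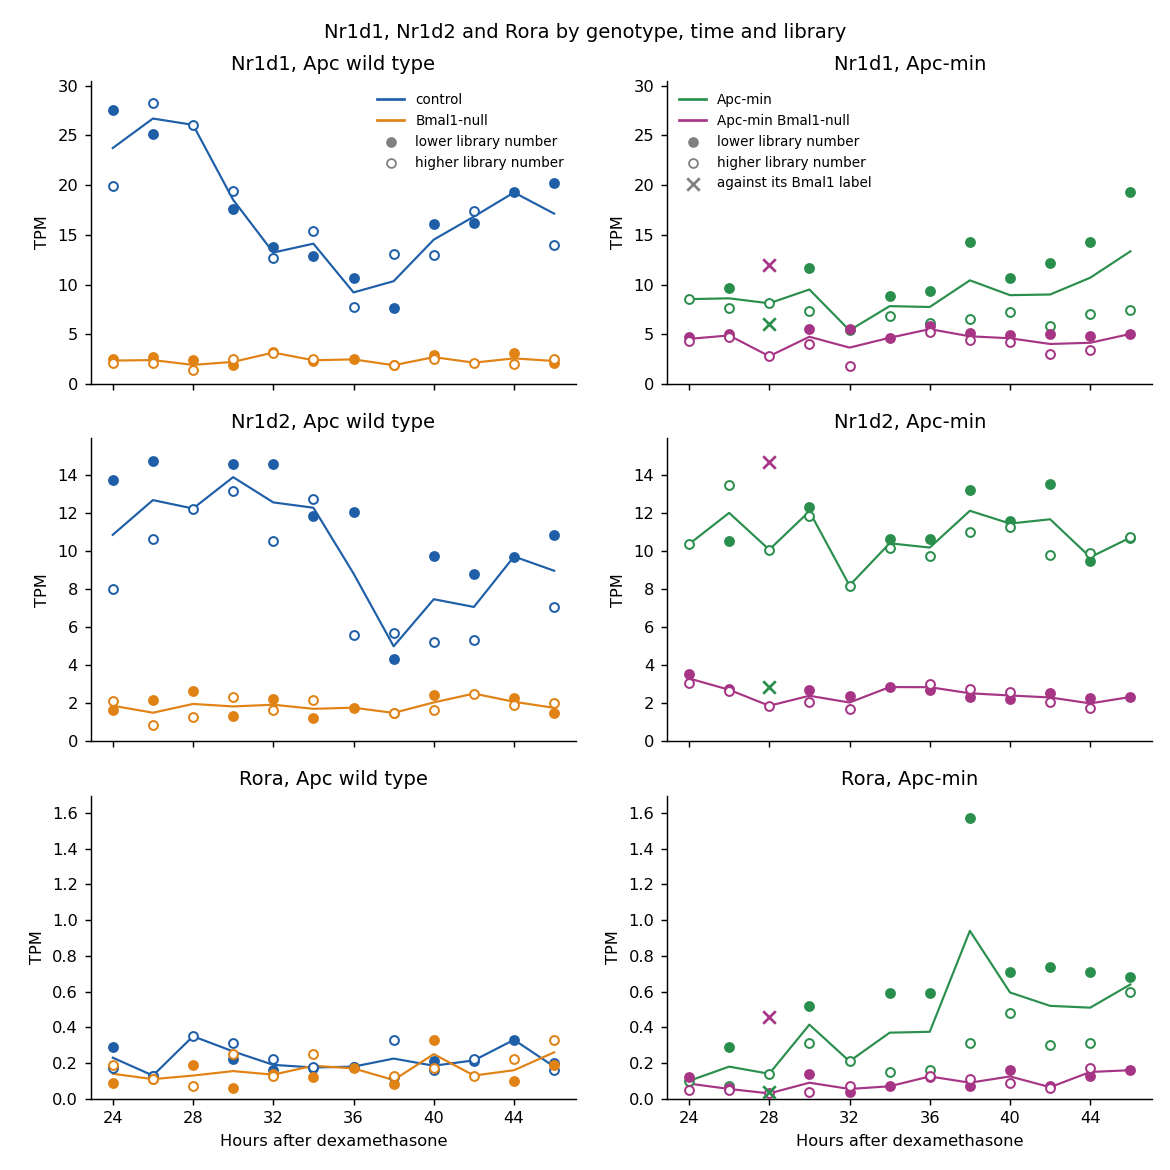
TPM of Nr1d1, Nr1d2 and Rora (rows) against hours after dexamethasone in Apc wild-type (left) and Apc-min (right) organoids; points are libraries, filled for the lower and open for the higher library number, crosses mark the pair against its Bmal1 labels, and lines join time-point means without that pair. Control Nr1d1 and Nr1d2 stand above every Bmal1-null library at each time, and Rora passes 1 TPM in 1 library.

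Bmal1 loss in Apc-min organoids also lowered both REV-ERB genes, Nr1d2 more than Nr1d1. Nr1d1 ran from 5.40 to 19.3 TPM, median 7.87, in Apc-min libraries and from 1.81 to 12.02 TPM, median 4.78, in those labelled Apc-min Bmal1-null. The groups overlapped, with 18 of 22 Apc-min Bmal1-null libraries below the lowest Apc-min library. The share of all genes separated to that degree was not counted. Nr1d1 fell by 0.75 ± 0.13 on the log2 scale (adjusted p = 1.75e-05), and without the pair at 28 h it fell by 0.83 ± 0.12. Nr1d2 ran from 2.87 to 13.5 TPM, median 10.6, in Apc-min libraries and from 1.68 to 14.7 TPM, median 2.56, in those labelled Apc-min Bmal1-null. Without the pair these ranges were 8.18 to 13.5 and 1.68 to 3.54 TPM. The pair was picked out by values that include Nr1d2. The gap between these ranges, and the smaller SE of Nr1d2 below, therefore follow from leaving it out. Nr1d2 fell by 1.6 ± 0.15 (adjusted p = 1.5e-10), and without the pair it fell by 1.77 ± 0.05. Here lower calls made up 35.7% of 12885 genes tested, so a call by itself sets neither gene apart. Within the lower-numbered libraries, which hold the pair and did not split in the sex-linked genes, Nr1d1 fell by 0.88 ± 0.20 and Nr1d2 by 1.43 ± 0.35. Within the higher-numbered ones they fell by 0.76 ± 0.10 and 1.79 ± 0.07. Without the pair, Nr1d1 averaged 5.12 TPM in lower-numbered and 3.81 TPM in higher-numbered Apc-min Bmal1-null libraries.

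The effect of Bmal1 loss on Nr1d1 differed between the Apc genotypes. The interaction, the log2 difference in Apc-min minus that in Apc wild-type organoids, was 1.59 ± 0.17 (adjusted p = 1.35e-12), and 1.5 ± 0.16 without the pair. It was 1.37 ± 0.24 within the lower-numbered and 1.66 ± 0.20 within the higher-numbered libraries. Calls with a positive interaction made up 18.1% of 13846 genes and those with a negative one 29.6%. The interaction for Nr1d2 was 0.30 ± 0.18 (adjusted p = 0.178; 95% interval -0.06 to 0.66), and among the settings run it was called only with median-of-ratios scaling (0.40 ± 0.16, adjusted p = 0.0295). Without the pair at 28 h it was 0.12 ± 0.13 (adjusted p = 0.463), and without its Apc-min Bmal1-null library alone it was 0.17. Within the higher-numbered libraries it was -0.03 ± 0.19.

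Nr1d1 was lower in Apc-min than in Apc wild-type organoids where Bmal1 was intact, and higher where it was absent. In both comparisons Apc genotype, medium and library series cannot be told apart. Mean Nr1d1 was 17.01 ± 5.86 TPM in control and 9.11 ± 3.43 TPM in Apc-min libraries (SD, n = 22 each), lower at 11 of 12 time points. On the log2 scale it fell by 0.84 ± 0.13 (adjusted p = 4.17e-07), or by 0.82 ± 0.13 without the pair at 28 h, in a comparison where 31.1% of 13663 genes were called lower and 50.5% higher. The median log2 difference of all genes in this comparison was 0.17. Within the lower-numbered libraries alone the Nr1d1 difference was -0.34 ± 0.16 and not called. Without Bmal1 the means were 2.39 ± 0.455 TPM in Bmal1-null and 4.84 ± 1.88 TPM in Apc-min Bmal1-null libraries, higher at all 12 time points, and the log2 difference was 0.74 ± 0.11 (adjusted p = 8.93e-08). It was 0.67 ± 0.08 without the pair, and 45.7% of 13404 genes were called higher and 38.8% lower.

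Nr1d2 followed another order. Its mean was 10.04 ± 3.37 TPM in control and 10.5 ± 2.17 TPM in Apc-min libraries, and the log2 difference of 0.13 ± 0.13 was not called (adjusted p = 0.346; 95% interval -0.12 to 0.39), nor was the 0.19 ± 0.11 found without the pair at 28 h (adjusted p = 0.116). It took the opposite sign, -0.02 ± 0.11, with median-of-ratios scaling, and within the higher-numbered libraries it was called at 0.32 ± 0.13 (adjusted p = 0.0402). Without Bmal1, Nr1d2 rose from 1.85 ± 0.476 to 3.04 ± 2.64 TPM, a log2 difference of 0.39 ± 0.12 (adjusted p = 0.00439), and 0.29 ± 0.08 without the pair. Within the higher-numbered libraries that difference was 0.26 ± 0.12 and not called (adjusted p = 0.0753).

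Over the 4 genotypes the mean level of Nr1d1 thus ran in the order control, Apc-min, Apc-min Bmal1-null, Bmal1-null, with each neighbouring pair past the threshold. For Nr1d2 the order was Apc-min, control, Apc-min Bmal1-null, Bmal1-null, with Apc-min and control not separated. Control and Apc-min Bmal1-null organoids differ in both Apc and Bmal1 genotype and were not compared directly. The ratio of Nr1d1 to Nr1d2 TPM within a library had a median of 1.81 in control (0.885 to 3.27), 1.26 in Bmal1-null (0.857 to 2.52), 0.816 in Apc-min (0.566 to 2.10) and 1.80 in Apc-min Bmal1-null libraries (0.819 to 2.30). Apc-min was the genotype in which Nr1d1 stood below Nr1d2 in most libraries.

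**Figure D2:**
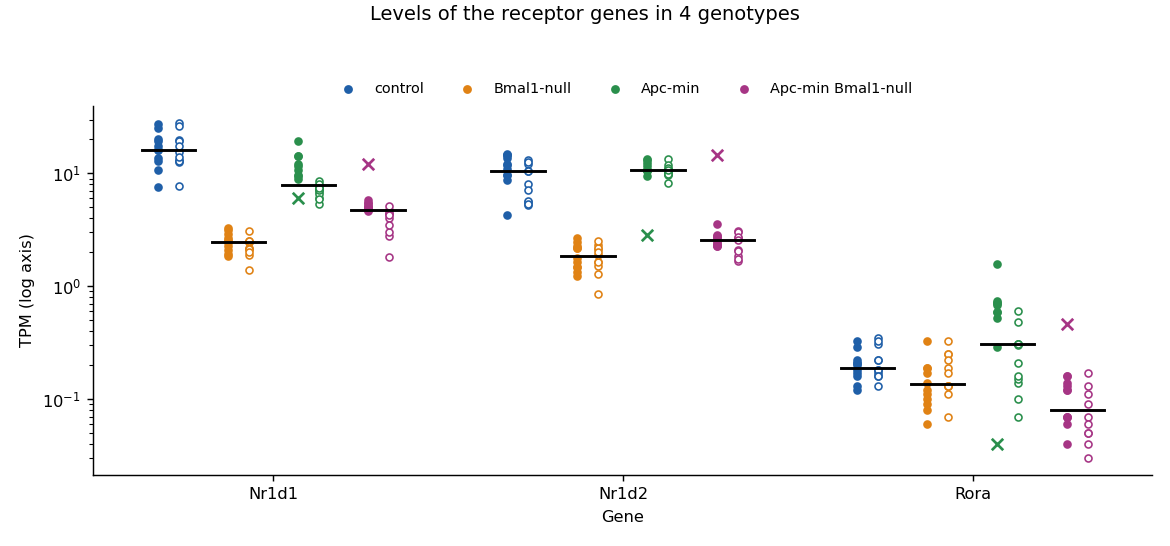
TPM on a log axis of Nr1d1, Nr1d2 and Rora in the 4 genotypes; points are libraries (filled, lower and open, higher library number; crosses, the 28 h pair against its Bmal1 labels), and black lines are medians over 22 libraries. Nr1d1 and Nr1d2 have medians of 16.1 and 10.6 TPM in control and 2.47 and 1.84 TPM in Bmal1-null libraries, and Rora lies below 1 TPM in all but 1 library.

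The Apc-min libraries were not uniform in Nr1d1. Without the 28 h library against its label, the 9 lower-numbered libraries ran from 8.86 to 19.3 TPM and the 12 higher-numbered ones from 5.40 to 8.54 TPM, with no overlap. The lower-numbered set held 14.3 TPM at 44 h and 19.3 TPM at 46 h, while the higher-numbered set held 7.06 and 7.41 TPM at those times. Nr1d2 showed no such gap, at 9.46 to 13.5 TPM in the lower-numbered and 8.18 to 13.4 TPM in the higher-numbered libraries. Arntl and Rora were also higher in the lower-numbered set, with means of 13.95 against 9.46 TPM and 0.71 against 0.26 TPM. How many of all genes separate the sets was not counted, so the gap is not shown to be particular to Nr1d1. Within the lower-numbered libraries the Nr1d1 difference between control and Apc-min was -0.34 ± 0.16 and not called (adjusted p = 0.0808), and within the higher-numbered ones it was -1.10 ± 0.11 (adjusted p = 2.79e-07). Whether a set is an organoid line was not tested.

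Thra, which encodes thyroid hormone receptor alpha, lies on the opposite strand and overlaps the 3′ end of Nr1d1 by 1075 bp, 263 bp of it exonic in both. The libraries were directional, but use of the strand in counting is not stated, so Thra is given beside Nr1d1. Thra averaged 78.3 ± 11.4 TPM in control, 82.3 ± 12.8 in Bmal1-null, 24.6 ± 6.16 in Apc-min libraries and 17.6 ± 4.25 TPM in those labelled Apc-min Bmal1-null (SD, n = 22 each). With Bmal1 loss in Apc wild-type organoids Thra differed by 0.06 ± 0.07 (log2, adjusted p = 1.00), and in Apc-min organoids it fell by 0.40 ± 0.08. With Apc-min it fell by 1.68 ± 0.08 where Bmal1 was intact and fell by 2.20 ± 0.09 without Bmal1. In Apc-min libraries without the 28 h library, Thra ran from 17.9 to 34.1 TPM in the lower-numbered and from 16.1 to 32.99 TPM in the higher-numbered set. Its part in the Nr1d1 values was not tested.

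**Figure D3:**
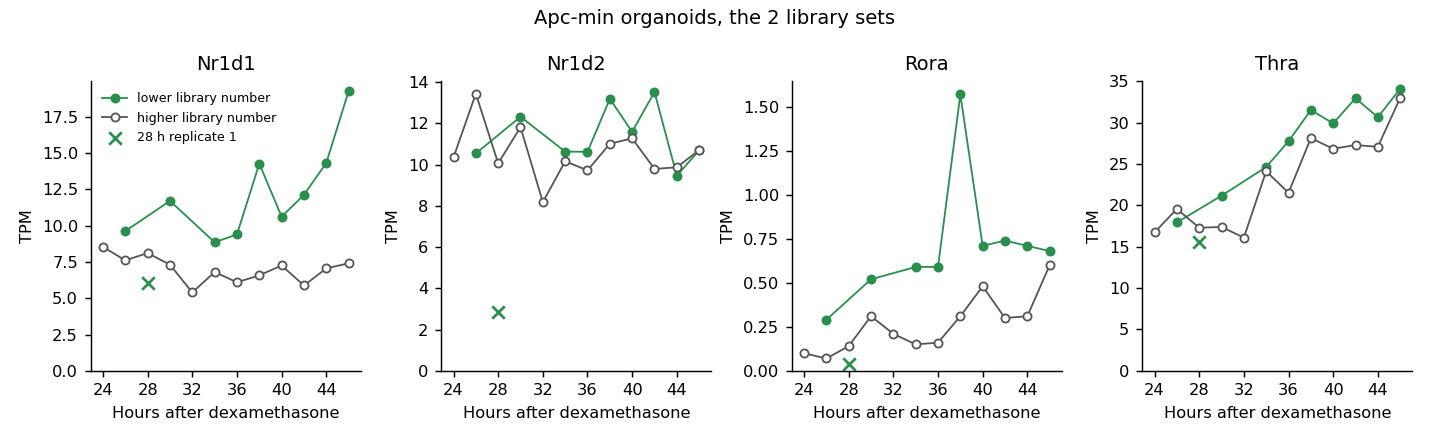
TPM of Nr1d1, Nr1d2, Rora and Thra against hours after dexamethasone in the 22 Apc-min libraries, by library number within each time point (filled green, lower; open grey, higher; cross, 28 h replicate 1). Nr1d1 separates the sets (8.86 to 19.3 against 5.40 to 8.54 TPM) while Nr1d2 and Thra overlap between them.

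Rhythm was tested as an F test of a 24 h cosine and sine in limma. In control organoids Nr1d1 was high early, low in the middle of the series and partly recovered. Its 2 libraries at 24 h held 27.6 and 19.9 TPM, those at 26 h 25.2 and 28.2 TPM and the single library at 28 h 26.1 TPM. At 36 h the values were 10.7 and 7.78 TPM and at 38 h 7.65 and 13.04 TPM, and the single library at 44 h held 19.3 TPM. The fitted amplitude was 0.55 ± 0.08 on the log2 scale, a 2.16-fold swing, with a peak at 24.99 ± 0.56 h and a trough at 36.99 h (adjusted p = 0.0107). In this genotype 0.0557% of 12570 genes were called, 7 in all. The amplitude was 0.62 ± 0.09 within the lower-numbered and 0.50 ± 0.12 within the higher-numbered libraries, and neither set of 11 libraries gave a call (adjusted p = 0.287 and 0.450).

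Nr1d2 in control organoids had its highest time-point mean, 13.9 TPM, at 30 h and its lowest, 4.99 TPM, at 38 h. The 11 libraries from 24 to 34 h ran from 7.99 to 14.7 TPM and the 11 from 36 to 46 h from 4.30 to 12.04 TPM. Its amplitude was 0.51 ± 0.10 with a peak at 28.6 ± 0.75 h, and it missed the threshold (adjusted p = 0.101). It passed with median-of-ratios scaling (adjusted p = 0.0135) and with the library set as a block (adjusted p = 0.00334), and in no other setting run. Adjusted p was 0.379 with a 20 h period and 0.949 with a linear time term or with time as a factor. Within the lower-numbered and higher-numbered libraries it was 0.583 and 0.256. The fitted Nr1d2 peak fell later than that of Nr1d1, a gap that was not itself tested. Of 5 tested positive regulators of these genes, the D-box activators Dbp and Tef were called rhythmic in control organoids, with fitted peaks at 29.6 and 30.4 h, and none of 8 negative regulators was.

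In the other genotypes neither REV-ERB gene was called rhythmic in limma, and neither reached an unadjusted p under 0.05 in any of them. In Bmal1-null organoids the amplitude was 0.03 ± 0.06 for Nr1d1 and 0.06 ± 0.08 for Nr1d2, in a genotype where 0% of 12550 genes were called and 864 had an unadjusted p under 0.05. In Apc-min organoids the amplitudes were 0.21 ± 0.12 and 0.16 ± 0.11, with 12% of 12625 genes called, and in Apc-min Bmal1-null organoids 0.05 ± 0.12 and 0.19 ± 0.14, with 2.59% of 12206 genes called. Nr1d2 in these 2 genotypes dropped to amplitudes of 0.02 each without the pair at 28 h. Of the regulators, Arntl was called rhythmic in Apc-min organoids, a call that did not hold without the pair. Npas2, Ciart, Nfil3 and Per2 were called in Apc-min Bmal1-null organoids, and their rhythm was not tested without the pair. No regulator was called in Bmal1-null organoids.

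The difference in rhythm between control and Bmal1-null organoids was called for Nr1d1 (amplitude of the difference 0.58 ± 0.10, adjusted p = 0.0363), among 0.0395% of 12654 genes, and not for Nr1d2 (0.56 ± 0.13, adjusted p = 0.655). Removing any of 13 single libraries ended the Nr1d1 call, with adjusted p up to 0.0612: in control, replicate 1 at 24 and 26 h, both at 30 and 32 h, and replicate 2 at 34 h, and in Bmal1-null, replicate 2 at 24 h, replicate 1 at 30 h, and both at 34 and 40 h. Between control and Apc-min organoids the difference was called for Nr1d1 (0.52 ± 0.15, adjusted p = 0.0427) and Nr1d2 (0.67 ± 0.15, adjusted p = 0.0218), in a comparison with 12.3% of 13663 genes called. The Nr1d1 call ended on removing any of 20 single libraries, with adjusted p up to 0.0887: in control, replicate 1 at 24, 32 and 38 h, replicate 2 at 28, 36 and 40 h, and both at 26 and 30 h, and in Apc-min, replicate 1 at 26, 36, 38, 40 and 42 h, replicate 2 at 24, 30 and 32 h, and both at 28 h. It did not hold without the pair at 28 h (0.49 ± 0.15, adjusted p = 0.0764), whereas Nr1d2 kept it (0.52). For the pair of APCmin genotypes neither gene was called (0.24 ± 0.18 and 0.35 ± 0.18), nor was any other gene (0%), with 880 genes at an unadjusted p under 0.05.

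**Figure D4:**
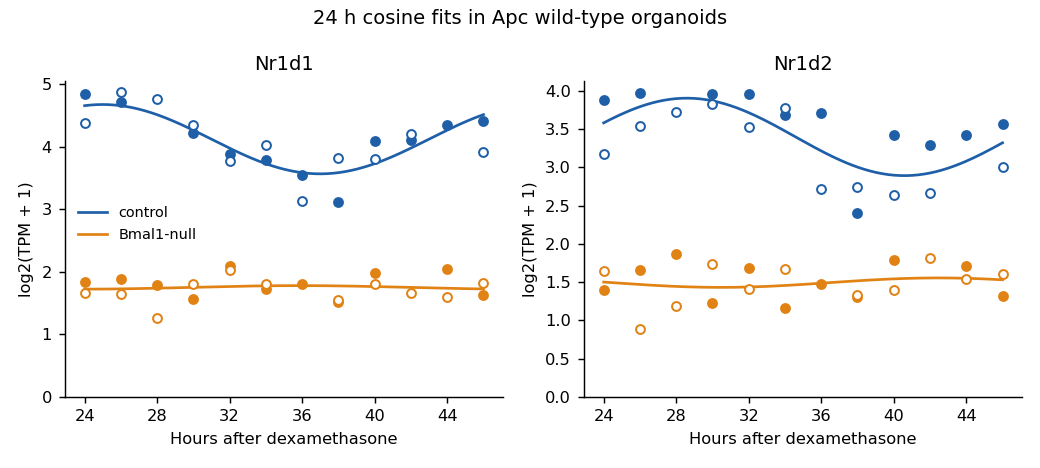
log2(TPM + 1) of Nr1d1 and Nr1d2 against hours after dexamethasone in control (blue) and Bmal1-null (orange) organoids, with points for libraries (filled, lower and open, higher library number) and the fitted 24 h cosine. The control curves peak at 24.99 and 28.6 h, and the Bmal1-null curves are nearly flat, with amplitudes of 0.03 and 0.06.

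Rora was close to the lowest measurable level. It ran from 0.12 to 0.35 TPM in control, from 0.06 to 0.33 TPM in Bmal1-null, from 0.04 to 1.57 TPM in Apc-min libraries and from 0.03 to 0.46 TPM in those labelled Apc-min Bmal1-null, with medians of 0.19, 0.14, 0.31 and 0.08 TPM. The ranges overlapped between all 4 genotypes. The highest values were in the Apc-min set of lower library numbers, at 0.29 to 1.57 TPM without the 28 h library, against 0.07 to 0.60 TPM in the higher-numbered set. From 36 h on, Apc-min libraries held 0.16 to 1.57 TPM, and up to 34 h 0.04 to 0.59 TPM.

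With no filter on low values, Rora gave a log2 difference of -0.06 ± 0.03 for Bmal1 loss in Apc wild-type organoids (adjusted p = 0.460) and -0.32 ± 0.07 in Apc-min organoids (adjusted p = 4.49e-04). For Apc-min the difference was 0.21 ± 0.07 with Bmal1 intact (adjusted p = 0.00886), where it was 0.49 within the lower-numbered and 0.04 within the higher-numbered libraries, and -0.06 ± 0.03 without Bmal1 (adjusted p = 0.0809). Over the settings run, 32.0% to 66.2% of all genes were called for Bmal1 loss in Apc-min organoids. For Apc-min with Bmal1 intact it was 52.9% to 83.3%, so an adjusted p under 0.05 does not set Rora apart in either. No genotype gave a rhythm call for Rora without the filter (adjusted p of 0.190 to 0.962). The size of these differences depends on the pseudocount. With 0.1 TPM added in place of 1, and no test, they were -0.28 and -1.12 for Bmal1 loss in Apc wild-type and Apc-min organoids, and 0.55 and -0.33 for Apc-min with and without Bmal1. These values come from levels mostly far below 1 TPM, at which the depth of each estimate is not known from TPM.

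The related receptor gene Rorb, the neuronal and retinal ROR, was at or below 0.05 TPM in all 88 libraries.

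Across the 12 control time means the correlation of Nr1d1 was 0.57 with Nr1d2 and -0.26 with Arntl (Pearson's r of log2(TPM + 1), a description over means that share libraries between genes). Over the 48 genotype-by-time means, Nr1d2 was the gene most like Nr1d1 among genes of at least 1 TPM (r = 0.88), and each was the nearest to the other. The next 4 for both were the Y-linked Ddx3y, Uty, Eif2s3y and Kdm5d (r of 0.74 to 0.75 with Nr1d1 and 0.80 to 0.83 with Nr1d2). Of these, Ddx3y stayed at or below 0.11 TPM in all higher-numbered libraries that lack Bmal1. Over the control time means alone, Slc25a43, Tmem102 and Slc35d2 were nearest to Nr1d1 (r of 0.82 to 0.85), and Nras, Cds1 and Galnt1 nearest to Nr1d2 (r of 0.96 to 0.97). For Rora they were Pax9, Rcan3 and A4galt (r of 0.80 to 0.87), and over the 48 means Slitrk6, Myh7b, Gpr146, Chrna4 and Usp35 (r of 0.88 to 0.89).

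Genes that act on the receptors changed in part. Of 5 tested positive regulators (Arntl, Clock, Npas2, Dbp and Tef; Hlf was too low), Npas2, the partner of BMAL1, rose by 0.54 ± 0.11 and Arntl fell by 0.70 ± 0.06 with Bmal1 loss in Apc wild-type organoids. The list median was 0.06, beside 0.004 for all genes. In Apc-min organoids, where 35.7% of all genes were called lower and 24.6% higher, Npas2 rose by 1.6 ± 0.24, Tef rose by 0.59 ± 0.09 and Arntl fell by 1.01 ± 0.13, or by 1.14 ± 0.08 without the pair at 28 h, with a list median of 0.15 beside -0.04. Of 8 tested negative regulators, 4 rose and 1 fell with Bmal1 loss in Apc wild-type organoids, led by the repressors Cry2 (1.25 ± 0.08), Cry1 (1.24 ± 0.07) and Per2 (0.74 ± 0.11), and the list median was 0.17. Higher calls made up 2.09% of all genes in that comparison. Nfil3, which represses D-box genes, rose by 0.39 ± 0.04, and Per3, named after its values were seen, fell by 0.31 ± 0.07.

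In Apc-min organoids 3 of the 8 rose with Bmal1 loss (Cry1 1.38 ± 0.13, Per2 1.18 ± 0.11, Cry2 0.65 ± 0.08), and 2 fell, beside the same shares of all genes. Bhlhe40, a repressor that binds E-boxes, fell by 0.64 ± 0.18, and Nfil3, named after its values were seen, fell by 0.35 ± 0.06. The list median was -0.11 beside -0.04, and without the pair at 28 h 4 fell, with Ciart and Per3 added. The opposite moves of Nfil3 in the 2 Apc genotypes differed by an interaction of -0.75 ± 0.08 (adjusted p = 4.42e-13). With Apc-min, 4 of the 8 fell where Bmal1 was intact, including Per2 (by 1.71 ± 0.10) and Nfil3 (by 1.06 ± 0.06), and 6 of 8 fell without Bmal1. None rose in either, and the list medians were -0.35 and -0.48, beside 0.17 and 0.07 for all genes. Of all genes 31.1% were called lower and 50.5% higher with Bmal1 intact, and 38.8% lower and 45.7% higher without it. Without the pair 7 of the 8 fell in organoids without Bmal1, with Ciart added. Of the 5 positive regulators, Npas2 and Arntl fell with Apc-min in both Bmal1 genotypes, and Dbp and Tef rose where Bmal1 was absent.

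Corepressor, coactivator, turnover and heme synthesis genes were not called with Bmal1 loss in Apc wild-type organoids, and some of each were in Apc-min organoids. None of the 5 corepressor genes, 7 coactivator genes, 7 genes of REV-ERB turnover or 8 heme synthesis genes was called in the former, and their medians lay between -0.03 and 0.04, beside 0.004 for all genes. In Apc-min organoids Hdac3, the deacetylase of the NCoR complex, rose by 0.09 ± 0.03, and no corepressor fell. Of the coactivators, Ppargc1a, a partner of ROR alpha, fell by 1.27 ± 0.15 and Ncoa3 rose by 0.54 ± 0.11. Among the turnover genes Cdk1 alone was called, at 0.31 ± 0.11. Of the heme synthesis genes 5 of 8 fell and 2 rose, among them Fech, which inserts the iron (fell by 0.29 ± 0.05), and Cpox (rose by 0.38 ± 0.09), with a list median of -0.11 beside -0.04. In that comparison 35.7% of all genes were called lower and 24.6% higher, so a count of this size over 8 genes sets the list apart in neither direction.

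With Apc-min, 2 of 5 corepressors were higher and 1 lower in both Bmal1 genotypes, where 50.5% of all genes were called higher and 31.1% lower with Bmal1 intact, and 45.7% and 38.8% without it. The counts of these short lists are to be read against those shares. With Bmal1 intact Hdac3 rose by 0.48 ± 0.03, Tbl1x rose by 0.43 ± 0.11 and Ncor1 fell by 0.29 ± 0.06. Of 7 coactivators 3 fell, led by Ncoa1 (by 1.34 ± 0.10), where Bmal1 was intact, and 5 fell and 1 rose without Bmal1. Of 7 turnover genes 3 rose and 2 fell with Bmal1 intact, among them Cdk1 (rose by 0.77 ± 0.11) and the kinase gene Gsk3b (fell by 0.51 ± 0.11), and without Bmal1 3 rose and 1 fell, or 2 fell without the pair at 28 h, with Siah2 added. Of 8 heme synthesis genes 4 rose and none fell with Bmal1 intact, and 4 rose and 2 fell without it.

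Targets of the receptors moved unequally. Of 5 clock targets (Arntl, Clock, Npas2, Nfil3 and Cry1), 3 rose and Arntl fell with Bmal1 loss in Apc wild-type organoids, with a list median of 0.39 beside 0.004. In Apc-min organoids 2 rose and 2 fell, Arntl among them, with a median of -0.05 beside -0.04. Arntl is the targeted gene, so its fall with Bmal1 loss cannot be read as a response of a target. With Apc-min 4 of 5 fell in both Bmal1 genotypes, with medians of -0.44 and -0.79 beside 0.17 and 0.07 for all genes, of which 31.1% and 38.8% were called lower. Both of these list medians are the Arntl values, and without Bmal1 that is what remains of the targeted transcript. Clock was not called in any of these 4 comparisons. Of 9 tested metabolic targets, the glucose-6-phosphatase gene G6pc rose by 0.79 ± 0.08 with Bmal1 loss in Apc wild-type organoids and Apoa1 fell by 0.17 ± 0.05 (adjusted p = 0.0497), with a list median of 0.04. In Apc-min organoids 1 of 4 tested was called, the desaturase gene Scd1, which fell by 0.49 ± 0.14, and without the pair at 28 h Insig2 was called lower as well.

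With Apc-min, 7 of 9 tested metabolic targets fell in both Bmal1 genotypes, and the list medians were -0.79 and -1.07, beside 0.17 and 0.07 for all genes, of which 31.1% and 38.8% were called lower. Of those that fell, Apoa1, Apoc3, G6pc, Lpl and Pck1 averaged under 1 TPM in both APCmin genotypes. They passed the filter only through the Apc wild-type genotypes, so the count and the list medians depend in part on that filter. The apolipoprotein gene Apoa1 averaged 4323 TPM in control and 0.40 TPM in Apc-min libraries, and Apoc3 fell by 7.16 ± 0.11 on the log2 scale. These are also genes of mature enterocytes, and the epithelial marker sums given above were lower in the APCmin genotypes. The markers in those sums differed. Krt20 averaged 599 TPM in control and 81.8 TPM in Apc-min libraries, and Cdh1 328 and 332 TPM. Epcam, Vil1, Cdx2 and Krt8 were also lower in Apc-min than in control libraries. Fewer cells of a type and less RNA per cell cannot be told apart in these bulk samples.

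**Figure D5:**
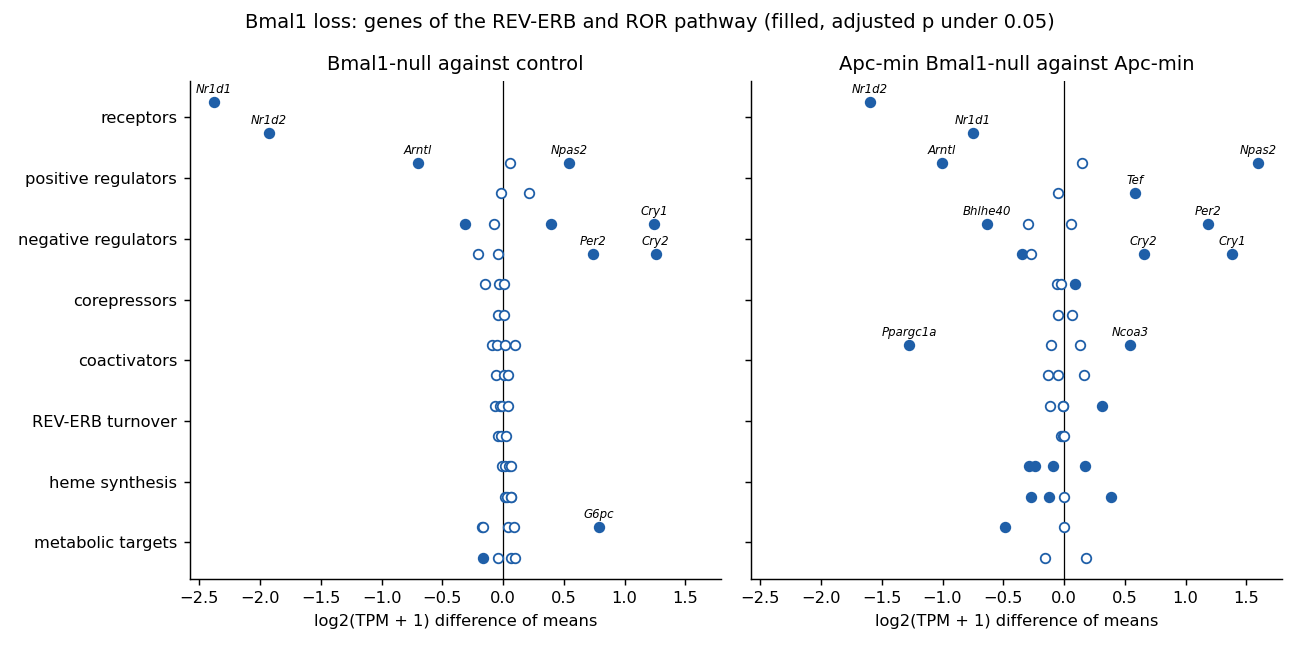
log2(TPM + 1) difference with Bmal1 loss for each tested gene of the receptor pathway lists, in Apc wild-type (left) and Apc-min organoids (right); filled points passed adjusted p under 0.05, names are given past 0.5, and vertical offsets only separate points. Both REV-ERB genes lie far left in the left panel. In the right panel Nr1d2 lies at -1.60 and Nr1d1 at -0.75, to the right of Arntl at -1.01. Cry1 and Per2 lie to the right in both panels, while the corepressors lie between -0.15 and 0.09.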

How the data were processed

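RNA-seq of 88 libraries was analysed from the expression tables. The authors' TPM tables, 1 per genotype, were used as deposited, and per the submitters' processing notes STAR 2.5, RSEM 1.3.0 and GRCm38 were used, with roles not given in the sources used here. The read count is the number of uniquely mapped reads deposited in the authors' alignment table, and its percent column, the share of reads unmapped as too short, is per the file headers. Of 96 labelled libraries, 8 were marked as not used by the authors.

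From TPM, log2(TPM + 1) was tested with limma 3.58.1 (variance trend, R 4.3.3) over all genes with a mean of at least 1 TPM in a genotype compared, with Benjamini-Hochberg adjustment and a threshold of 0.05. Levels had time as a factor, and rhythms were F tests of 24 h cosine and sine terms over 1 cycle, which cannot tell a cosine from another single change. The scripts were tested on simulated data. Genes named from a list are the up to 4 largest called differences, with likeness taken over 48 and 12 means among genes of at least 1 TPM, without predicted genes. Gene lists followed the receptors' regulators, partners and targets. A few of their genes are not reported here, and list counts and medians leave them out. The 3 genes and the lists were chosen with earlier results of these data known. Errors are SE of limma coefficients unless SD is given, and the depth of single TPM values is unknown. Alternatives were pseudocount, filter, scaling, block, period, linear trend and leaving out libraries. Separation by library number was added after seeing the data.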

Additional observations from a re-analysis of the deposited data

Results flagged for a closer look

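Several effects differed between groups by the limma test of the difference itself. For the interaction of Apc and Bmal1 on level, the log2 values were 1.59 for Nr1d1 and -0.34 for Arntl. For the 24 h rhythm between control and Bmal1-null organoids, the amplitude of the difference was 0.58 for Nr1d1. Between control and Apc-min organoids it was 0.52 for Nr1d1 and 0.67 for Nr1d2. The Arntl interaction lost its call without any of 34 single libraries (adjusted p up to 0.0706), with no filter on low values (adjusted p = 0.0798), with median-of-ratios scaling (-0.26, adjusted p = 0.0657) and within the lower-numbered libraries (-0.31, adjusted p = 0.296). Without the pair at 28 h that goes against its Bmal1 labels it was -0.47 ± 0.11 (adjusted p = 1.24e-04). Arntl values helped pick out that pair, so this larger difference and smaller adjusted p follow in part from leaving it out.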

How the results depend on the processing

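No paired analysis was possible because the labels number the libraries and give no replicate numbers, and those used here follow accession order and only name libraries. Of the 3 genes, the number called in limma depended on the setting as follows. For Apc-min with Bmal1 intact it was 1, and 2 with no filter, 0 within the lower-numbered and 2 within the higher-numbered libraries. For Apc-min without Bmal1 it was 2, and 0 with a minimum mean of 5 TPM, which leaves both genes untested, and 1 within the higher-numbered libraries. For the interaction it was 1, and 2 with no filter or with median-of-ratios scaling. For the control rhythm it was 1, and 2 with median-of-ratios scaling or the library set as a block, and 0 with time as a factor and within either library set. For the rhythm difference of control and Bmal1-null it was 1, and 0 with a pseudocount of 0.1, no filter, a linear time term, a 28 h period, all 4 genotypes in 1 fit or either library set, and 0 to 1 leaving out single libraries. For that of control and Apc-min it was 2, and 1 with no filter, median-of-ratios scaling or without the 28 h pair, 0 with a linear time term, a 20 h period or either library set, and 1 to 2 leaving out single libraries. The Nr1d2 difference for Apc-min with Bmal1 intact turned to -0.015 with median-of-ratios scaling, and its interaction to -0.029 within the higher-numbered libraries. Beyond fewer libraries and genes tested, the cause was not tested. For Bmal1 loss in Apc-min organoids it was 2, and 3 with no filter, which adds Rora. For Bmal1 loss in Apc wild-type organoids it was 2 in the settings run. With a pseudocount of 0.1 the untested Rora differences were 0.55 for Apc-min with Bmal1 intact and -1.12 for Bmal1 loss in Apc-min organoids, in place of 0.21 and -0.32.

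Over all genes, the number called moved from 450 to between 249 and 697 for Bmal1 loss in Apc wild-type organoids, and from 11153 to up to 16826 and 11327 to up to 16929 for Apc-min with and without Bmal1. For rhythms it moved from 7 to between 0 and 289 in control, from 0 to up to 139 in Bmal1-null, from 1513 to between 0 and 4179 in Apc-min and from 316 to between 0 and 1444 in Apc-min Bmal1-null organoids. For rhythm differences it moved from 5 to 0 between control and Bmal1-null, from 0 to up to 12 between both Apc-min genotypes, and from 1684 to between 0 and 4914 between control and Apc-min. The planned rhythm test on the authors' quantile-normalized values was not run, since their columns name times only. TPM gives no depth per gene, which limits Rora most.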
